A study of Mus musculus with 4 samples.

Results

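ST2-positive regulatory T (Treg) cells without amphiregulin were described here as the visceral adipose tissue Treg cells in which the ST2 receptor gene Il1rl1 was counted and the growth factor gene Areg was not. A cell belonged to them when it had 500 or more genes, under 10% mitochondrial counts, 1 condition hashtag with 90% or more of at least 10 hashtag counts, no count of Cd79a, Lyz2 or Cd8a, at least 1 Il1rl1 molecule and 0 Areg molecules. Molecules were counted as unique molecular identifiers (UMIs), so that each captured RNA is counted once. The rule gave 2435 cells of the 16895 that passed its filters, which are called ST2+ Areg- cells below. Il1rl1 and Areg chose these cells, so their levels, and every contrast between cells with and without them, are descriptions.

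Droplet 5' single-cell RNA sequencing had been run on 2 separate pools of sorted live CD3+ CD4+ Foxp3+ cells from male mice at steady state or on a diet. The Srebf2 pool mixed cells of 25-week-old Foxp3YFP-cre mice with Srebf2WT/WT (WT, 4 mice) and with Srebf2flox/flox (KO, 4 mice). Both of these groups are given with the Foxp3YFP-cre allele, in which Foxp3 drives the Cre recombinase, so the deletion falls on Foxp3-expressing cells. The diet pool mixed cells of Foxp3thy1.1 PpargTdt mice aged 23 to 27 weeks, 5 on normal chow diet (NCD) and 5 on high fat diet (HFD), each for 22 weeks. Mice of a condition shared 1 hashtag, so each condition is 1 sample without a replicate check, no test was possible and no p-value is given. The 95% intervals count sampling of molecules or cells alone, so the variation from mouse to mouse is not in them. WT and KO were measured in one pool and NCD and HFD in the other, so differences between the pools cannot be told apart from differences between the experiments.

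ST2 is the receptor for interleukin-33, an alarm cytokine released by stressed stromal cells of fat, and Treg cells that carry it are the characteristic resident Treg cells of visceral fat in lean male mice. They depend on PPAR-gamma (gene Pparg) and GATA3 and often carry KLRG1, an inhibitory receptor that binds cadherins. Amphiregulin is a ligand of the epidermal growth factor receptor that Treg cells release in tissue repair, and its gene is quickly induced by signals to the cell. TXNIP, the thioredoxin-interacting protein, restrains glucose uptake and falls when T cells are activated.

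The oligonucleotides below are the hashtags that gave each cell its condition and with it every comparison, printed 5' to 3' in lower case.
Hashtag 1, WT: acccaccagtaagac
Hashtag 2, KO: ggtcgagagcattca
Hashtag 3, NCD: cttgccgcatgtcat
Hashtag 4, HFD: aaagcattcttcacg

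There were 577 ST2+ Areg- cells in WT, 16.5% of the 3490 kept cells (95% exact binomial interval 15.3 to 17.8). KO held 601 of 3956 kept cells, 15.2% (14.1 to 16.3). NCD held 993 of 4938, 20.1% (19.0 to 21.3), and HFD held 264 of 4511, 5.85% (5.19 to 6.58). The share was lowest in HFD, and the WT and KO intervals overlapped. After each cell was thinned to 2000 UMIs the shares were 16.9%, 15.5%, 21.4% and 4.66% in WT, KO, NCD and HFD.

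**Figure D1:**
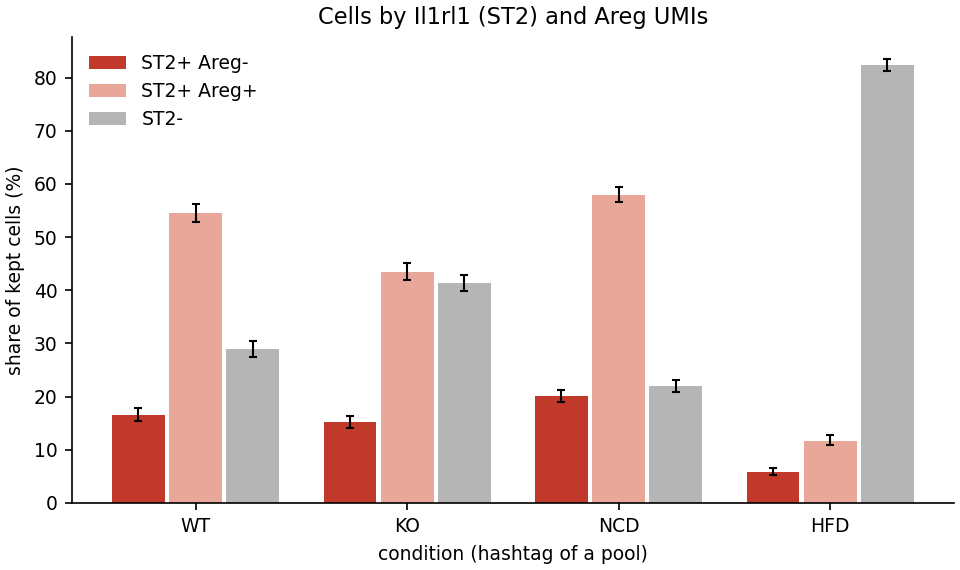
Share of kept cells (y axis, %) in each condition (x axis) that were ST2+ Areg-, ST2+ Areg+ or without an Il1rl1 UMI (ST2-), with 95% exact binomial intervals. The ST2+ Areg- bars stand at 16.5%, 15.2%, 20.1% and 5.85% in WT, KO, NCD and HFD, and in HFD 82.4% of the cells were without an Il1rl1 UMI.

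Among all cells with an Il1rl1 UMI, 23.3% had no Areg UMI in WT (21.6 to 25.0), 25.9% in KO (24.1 to 27.7), 25.8% in NCD (24.4 to 27.2) and 33.3% in HFD (30.0 to 36.7). Cells without an Il1rl1 UMI more often had no Areg UMI, 57.8%, 61.6%, 68.5% and 73.6% in the same order. The lack of an Areg UMI moved with depth: with Il1rl1-positive cells cut into 4 equal groups by depth, from the shallowest to the deepest the share went from 33.1% to 18.5% in WT, from 36.0% to 17.2% in KO, from 37.9% to 16.2% in NCD and from 48.7% to 24.6% in HFD. A part of the ST2+ Areg- cells therefore cannot be told apart from cells whose Areg RNA was missed, although in the deepest group between 16.2% and 24.6% still had none. The higher share in HFD was not seen among cells with 2 or more Il1rl1 UMIs, where it was 20.2%, 23.8%, 24.3% and 23.9% in WT, KO, NCD and HFD.

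RNA from broken cells also gives UMIs. Among droplets that hold B cells, which should lack both genes, an Il1rl1 UMI was found in 4 of 39 in WT, 1 of 29 in KO, 6 of 100 in NCD and 2 of 63 in HFD. An Areg UMI was found in 8 of 39, 20.5% (9.30 to 36.5), in WT, and in 2 of 29, 5 of 100 and 2 of 63 in KO, NCD and HFD, so cells with 1 Areg UMI can hold stray Areg RNA as well. Their median depths were 4296, 4960, 4124 and 3122 UMIs, against 3381, 3625, 3774 and 3233.5 in ST2+ Areg- cells. In HFD the share of kept cells that were ST2+ Areg-, 5.85%, lies inside the interval of the B cell value of 3.17% (0.387 to 11.002). The same holds for 16.5% in WT, with B cells at 10.3% (2.87 to 24.2), and 15.2% in KO, with 3.45% (0.0873 to 17.8). In NCD 20.1% lies above the B cell interval of 2.23 to 12.6. Few B cells were counted, so these intervals are wide. The B cell values also count droplets with Areg UMIs, whereas the ST2+ Areg- shares leave such cells out, so the measures are unlike. Of the B cell droplets with an Il1rl1 UMI, 1 of 4, 1 of 1, 5 of 6 and 2 of 2 had no Areg UMI in WT, KO, NCD and HFD. The WT value of 10.3% thus overstates the like share most. The ST2+ Areg- cells, in HFD and elsewhere, can thus hold a part that carries 1 stray Il1rl1 UMI, and the size of that part was not tested.

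The number of Il1rl1 UMIs per cell was lower in HFD as well. A single Il1rl1 UMI was the basis of membership for 33.6% of the cells in WT, 31.6% in KO and 19.6% in NCD, but for 56.4% in HFD. In reverse, 3 or more UMIs were counted in 45.4%, 46.9%, 60.9% and 27.3%, and the highest cell held 31, 23, 21 and 12. NCD cells thus sat highest above the threshold of the rule and HFD cells closest to it.

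The label was checked against Klrg1, Pparg, Txnip and Foxp3, none of which the rule uses. Klrg1 (chr6:122270596-122282833, GRCm38.p6) was counted in 488 of 577 cells in WT, 467 of 601 in KO and 911 of 993 in NCD, but in 107 of 264 in HFD. Pparg (chr6:115360879-115490404) is a low transcript and was seen in 30.5%, 30.1%, 20.1% and 7.58% of the cells in WT, KO, NCD and HFD. Txnip (chr3:96557957-96561857) was seen in 84.6%, 78.0%, 87.1% and 68.9%, and Foxp3, the defining transcription factor of Treg cells, in 58.8%, 53.7%, 54.5% and 50.4%. In WT, KO and NCD the cells matched the label, since only 12.7%, 18.6% and 7.55% had neither Klrg1 nor Pparg. In HFD 56.8% had neither, and 27.7% had a UMI of Tcf7, a gene of resting T cells, against 5.20%, 5.82% and 2.52% in WT, KO and NCD. The HFD cells are therefore called by their rule only.

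Levels are given as CPM, the summed UMIs of a gene in a class for every 1e+06 UMIs of that class. Klrg1 stood at 1248 CPM in WT (1202 to 1296), 1051 in KO (1011 to 1092), 1209.6 in NCD (1176 to 1244) and 335 in HFD (300.4 to 372). ST2+ cells with Areg UMIs had 1276, 1099, 1224 and 626 CPM, and cells without an Il1rl1 UMI 576, 394, 469.8 and 38.3. In WT, KO and NCD the absence of Areg thus went with almost no difference in Klrg1, with log2 ratios of -0.03, -0.07 and -0.02, whereas in HFD it was lower, at -0.90 (-1.07 to -0.74). Pparg differed little between the ST2+ classes in any condition, with 129, 122, 68.7 and 23.0 CPM in ST2+ Areg- cells and 139, 137, 83.2 and 24.2 in ST2+ Areg+ cells.

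Txnip differed between the classes. It stood at 1081 CPM in WT, 989.7 in KO, 1212 in NCD and only 513 in HFD, against 421, 402, 418 and 275 in ST2+ Areg+ cells and 526, 498, 474 and 392.1 in cells without Il1rl1. Among the classes compared, every condition had its highest Txnip level in the ST2+ Areg- cells, with the narrowest gap in HFD. The cells without Il1rl1 include cells with Areg UMIs, so these values do not compare Areg-free cells with and without Il1rl1. Foxp3 differed little between the ST2+ classes: it was 286, 243, 220.0 and 216 CPM without Areg and 261, 283, 216 and 209.7 with it. Gata3, the transcription factor of type 2 lymphocytes, was 467, 479.7, 595 and 367 CPM without Areg and 557, 505, 663 and 535 with it. Il10, the gene of an inhibitory cytokine, was lower without Areg in all 4 conditions, at 74.2, 101, 66.8 and 11.5 CPM against 127, 174, 99.9 and 33.6.

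**Figure D2:**
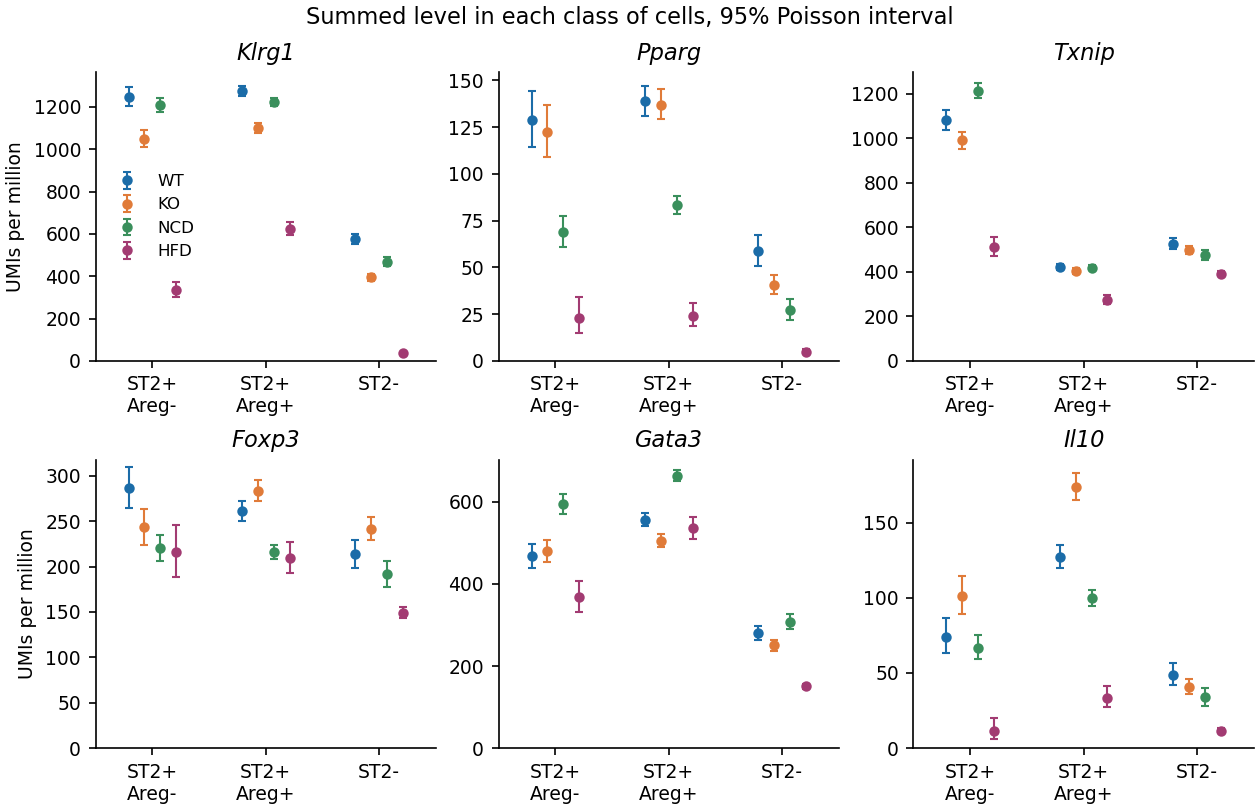
Summed levels (y axis, CPM) of Klrg1, Pparg, Txnip, Foxp3, Gata3 and Il10 in ST2+ Areg-, ST2+ Areg+ and ST2- cells (x axis) of the 4 conditions (colours), with 95% exact Poisson intervals. Txnip is highest in the ST2+ Areg- cells of every condition, and Klrg1 in HFD lies far below the other 3 conditions in every class.

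When all Il1rl1-positive cells were ordered by their Areg UMIs, from 0 through 1, 2 to 4, 5 to 9 and 10 or more, Txnip went down step by step. It was 1081, 801, 636, 459 and 265 CPM in WT, and in NCD 1212, 954, 723, 519 and 242. In HFD the range was narrower, from 513 to 179.7 CPM. Cells with 1 Areg UMI, just outside the rule, thus lay between those with none and those with many. Over the same steps Nr4a1, an orphan nuclear receptor induced by antigen receptor signals, went up from 662 to 3167 CPM in WT, from 846 to 3497 in KO, from 383 to 2890.0 in NCD and from 474 to 1599 in HFD. Nfkbia, which encodes the inhibitor of NF-kB and is induced by it, went from 1683 to 4510.4, from 1913 to 4935, from 1125 to 4197 and from 1608 to 3729. Klrg1 kept within 1175 and 1251 CPM over the 5 steps in NCD, and in HFD it went from 335 up to 703. Median depth was also higher at the last step than at the first, for example 4153 against 3381 UMIs in WT, and its part in the trend was not tested.

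**Figure D3:**
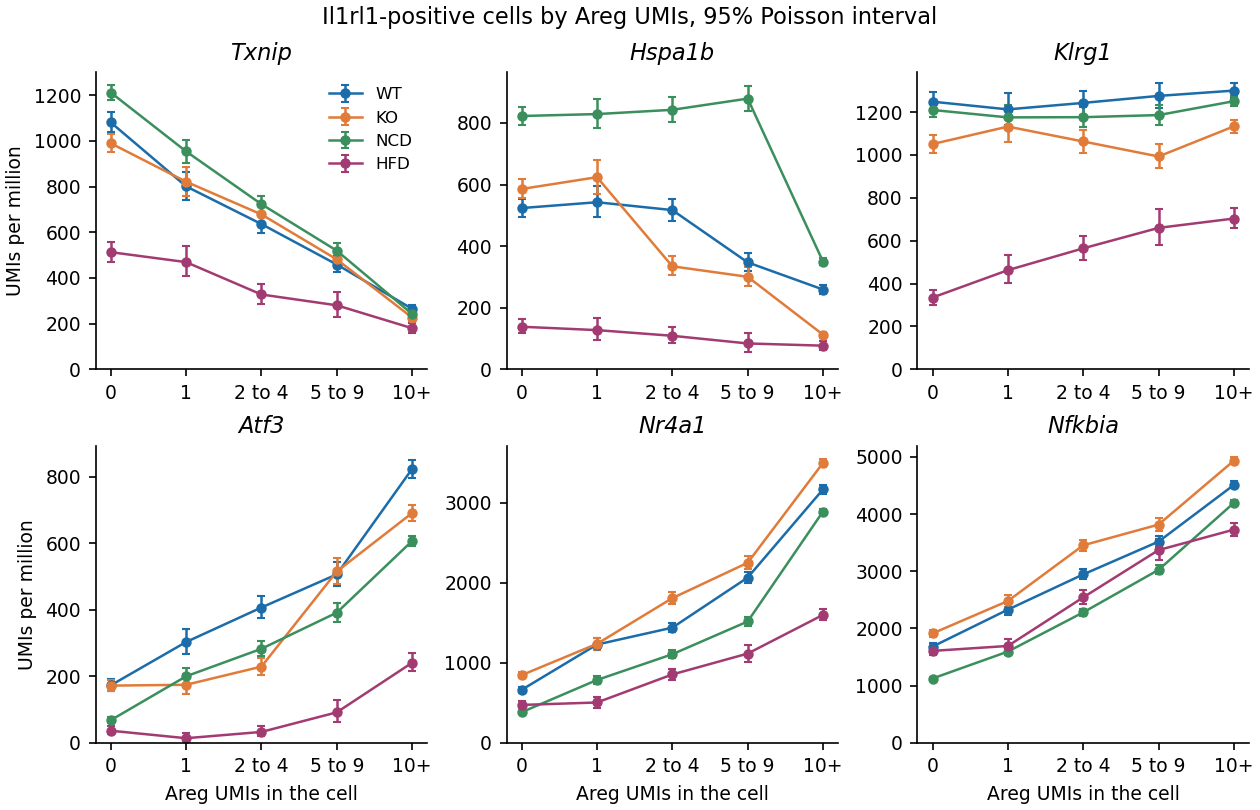
Levels (y axis, CPM) of Txnip, Hspa1b, Klrg1, Atf3, Nr4a1 and Nfkbia in Il1rl1-positive cells grouped by Areg UMIs per cell (x axis), 1 line per condition, with 95% exact Poisson intervals. Txnip goes down from 1081 to 265 in WT while Nr4a1 and Nfkbia go up, and the first point of each line is the ST2+ Areg- cells.

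Across all genes, the ST2+ Areg- cells were set against the ST2+ Areg+ cells of their own condition, and a gene was counted when it differed by 1.5-fold or more in the same direction in all 4 conditions. Of 5782 genes whose higher class reached 20 CPM in each condition, 9 were higher (0.156%) and 54 lower (0.934%) without Areg. This contrast holds the gene that made it, so the counts describe it and no more. The 9 higher genes were Txnip, Fmn1, Tex14, Rdm1, Inip, Triap1, Tbx21, Gm2682 and Gm26887, of which Inip, Triap1 and the Gm models fall outside the naming rule and are given because they complete a short list.

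Genes induced by stress and by antigen receptor signals were among the lower ones. Atf3, a stress-induced transcription factor of the ATF/CREB family, stood at 173 CPM in WT, 172 in KO and 68.0 in NCD, and at 36.4 in HFD, against 637, 534, 491 and 134 with Areg. That made log2 ratios of -1.88, -1.63, -2.85 and -1.86, largest in NCD. Nr4a1 had ratios of -1.89, -1.72, -2.55 and -1.32, and the lipid droplet gene Hilpda -1.54, -1.48, -1.98 and -1.66. Cxcl2, which encodes a chemokine for neutrophils, had 1447, 764, 443 and 275 CPM without Areg and 3543, 2815, 2393 and 1239 with it. The cell cycle inhibitor Cdkn1a followed with -1.27, -1.56, -2.09 and -2.17, and the stress gene Gadd45b with -1.22, -1.11, -1.61 and -1.17.

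Grouped by function, 7 of the 15 measured NF-kB targets were lower in all 4 conditions and none was higher, with a list median between -0.59 in HFD and -1.21 in NCD while the median over all genes lay between 0.02 and 0.08. Nfkbia, Nfkbiz and the survival genes Bcl2a1b and Bcl2a1d were among the 7. Bcl2a1b and Bcl2a1d are near-identical copies whose reads may be split between them, so each value is uncertain. Of 22 measured AP-1 and immediate early genes, 4 were lower (Atf3, Nr4a1, Fosl2 and Dusp5) and none higher, with medians from -1.20 in NCD to -0.48 in HFD. The other 18 did not reach 1.5-fold in all 4 conditions. Cell by cell, after thinning to 2000 UMIs, the NF-kB list gave a median of 10, 11, 6 and 11 UMIs per ST2+ Areg- cell in WT, KO, NCD and HFD, against 22, 25, 21 and 20 per ST2+ Areg+ cell. Cells without Il1rl1 had 11, 9, 8 and 5. Classes were set anew on the thinned counts, so cells that lost their Il1rl1 or Areg UMIs changed class. The cells without Il1rl1 then numbered 1515 in NCD, against 1083 before, and they mix cells with and without Areg. In WT, KO and NCD the ST2+ Areg- cells lay near these mixed ST2- cells on this list, and the part of the mixing was not tested.

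Few genes of Treg identity passed. Among 29 measured genes of the ST2 adipose Treg program 1 was lower, Tnfrsf9, which encodes the co-stimulatory receptor 4-1BB, and of 11 Treg core genes none passed in either direction. The medians of the program were -0.10, -0.12, -0.13 and -0.43 in WT, KO, NCD and HFD, so in HFD it lay near that of the AP-1 list. Il10 had ratios of -0.77, -0.78, -0.58 and -1.50 but missed the 1.5-fold line narrowly in NCD. Ctla4, the gene of an inhibitory receptor of Treg cells, was 787, 654, 524 and 948 CPM without Areg and 1084, 899, 825 and 1116 with it. None of the 14 heat shock genes, 5 cholesterol synthesis genes, 14 glycolysis genes or 22 nuclear genes of oxidative phosphorylation passed. Hspa1b, the inducible heat shock protein 70, was higher in every condition but below 1.5-fold in WT and HFD, with ratios of 0.58, 1.35, 0.61 and 0.57, and its reads are shared with the near-identical Hspa1a.

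On the higher side, Txnip had ratios of 1.36, 1.30, 1.53 and 0.90, and it was the only 1 of 19 measured quiescence and FOXO-linked genes to pass. Tsc22d3, a glucocorticoid-induced gene of the same list, had 0.44, 0.49, 0.50 and 0.46. Fmn1, a formin that nucleates actin filaments, stood at 2377, 2247, 535 and 173 CPM without Areg and 817, 865, 217 and 92.2 with it, and its levels in the Srebf2 pool lay far above those in the diet pool. Tex14 and Rdm1 were higher as well, with 0.81 and 0.87 in WT. Tbx21, which encodes the type 1 transcription factor T-bet, had 22.5, 24.2, 28.0 and 28.8 CPM against 9.98, 14.3, 11.99 and 17.7, but cells without Il1rl1 had 76.5, 118, 109 and 35.6. The ST2+ Areg- cells thus lay between both other classes for Tbx21, as they did for Cxcr3 in WT, KO, NCD and HFD (38.7, 67.8, 50.1 and 134 CPM). Between the ST2+ classes Tbx21 reached 20 CPM only without Areg, so the floor bears on its being counted.

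**Figure D4:**
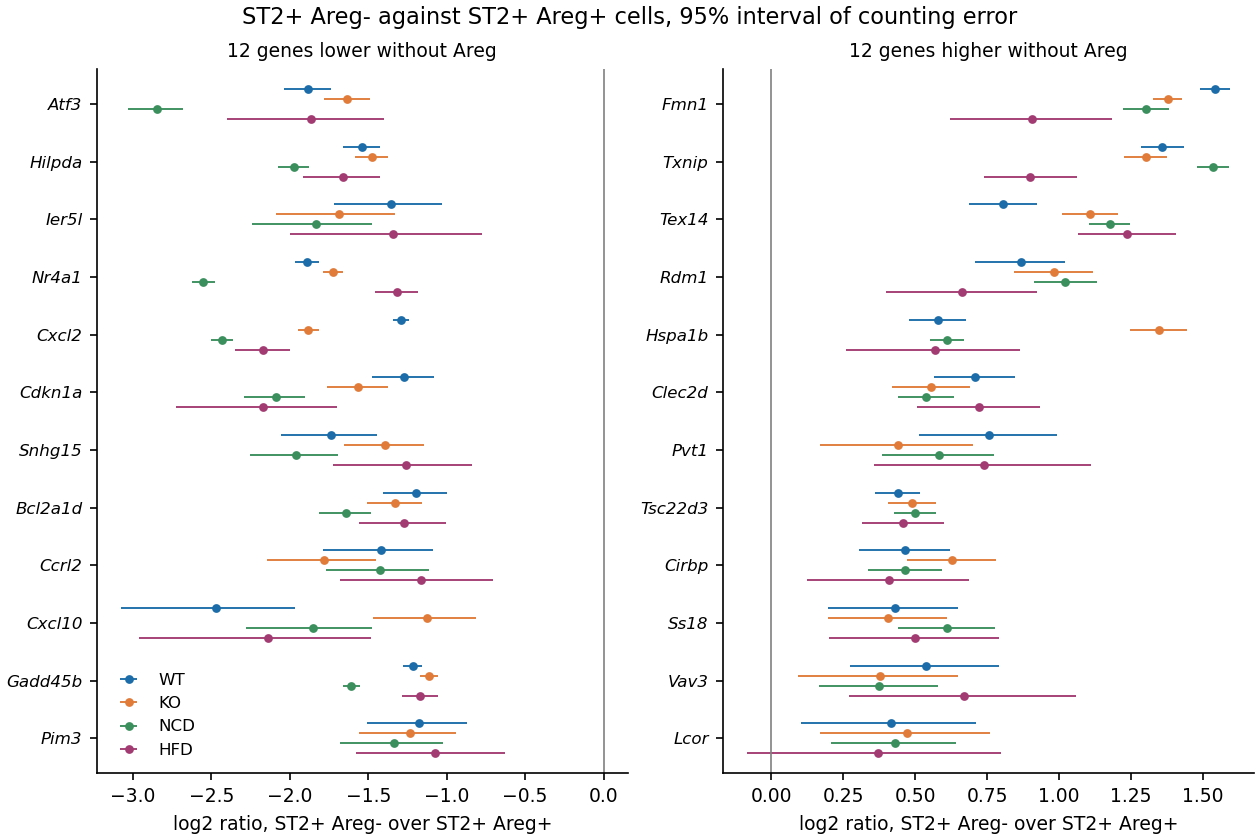
Log2 ratio (x axis) of ST2+ Areg- over ST2+ Areg+ cells for the 12 genes lowest and the 12 highest by their weakest condition (y axis), 1 point per condition with its 95% interval of counting error. Atf3 is lowest in NCD at -2.85, and Fmn1 and Txnip lead the higher genes.

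The promoters of Areg and of 4 genes described above are shown beside their levels: Atf3, Nr4a1 and Nfkbia were lower and Txnip higher without Areg. These 4 were chosen after their values were seen. Each is the 250 bases before an annotated transcript start, from RefSeq on GRCm38.p6, read 5' to 3' along the gene's strand in lower case, with matches of the searched motifs in capitals. The Nr4a1 window lies inside the annotated gene (chr15:101253902-101274795), before an internal start, and the other 4 end where the gene starts.
Areg promoter, chr5:91139349-91139598, plus strand: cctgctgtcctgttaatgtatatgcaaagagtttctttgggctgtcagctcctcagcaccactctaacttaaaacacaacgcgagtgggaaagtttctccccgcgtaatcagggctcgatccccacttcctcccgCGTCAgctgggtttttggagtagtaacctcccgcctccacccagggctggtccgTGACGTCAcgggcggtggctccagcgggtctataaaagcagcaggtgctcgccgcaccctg
Atf3 promoter, chr1:191183334-191183583, minus strand: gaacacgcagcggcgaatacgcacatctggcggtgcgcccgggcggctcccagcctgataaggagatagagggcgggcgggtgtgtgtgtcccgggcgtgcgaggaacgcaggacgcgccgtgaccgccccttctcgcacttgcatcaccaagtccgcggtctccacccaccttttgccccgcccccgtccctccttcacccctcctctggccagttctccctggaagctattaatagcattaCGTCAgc
Nr4a1 promoter, chr15:101266596-101266845, plus strand: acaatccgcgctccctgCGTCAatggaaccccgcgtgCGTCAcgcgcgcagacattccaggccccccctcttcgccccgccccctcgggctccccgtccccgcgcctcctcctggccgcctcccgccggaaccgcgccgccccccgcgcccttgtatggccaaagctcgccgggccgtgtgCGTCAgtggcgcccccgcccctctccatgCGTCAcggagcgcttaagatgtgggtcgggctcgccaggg
Nfkbia promoter, chr12:55492648-55492897, minus strand: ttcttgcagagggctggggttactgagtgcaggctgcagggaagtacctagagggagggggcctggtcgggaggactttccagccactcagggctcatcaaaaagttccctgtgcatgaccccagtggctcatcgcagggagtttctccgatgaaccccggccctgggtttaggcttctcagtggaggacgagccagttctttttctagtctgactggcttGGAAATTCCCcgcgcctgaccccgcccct
Txnip promoter, chr3:96557707-96557956, plus strand: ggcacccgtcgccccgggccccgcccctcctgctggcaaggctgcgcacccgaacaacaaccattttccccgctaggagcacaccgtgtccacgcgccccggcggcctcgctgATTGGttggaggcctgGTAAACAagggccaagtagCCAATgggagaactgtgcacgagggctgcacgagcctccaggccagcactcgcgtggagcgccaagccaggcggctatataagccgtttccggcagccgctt

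The motifs searched on both strands were the cyclic AMP response element TGACGTCA, its half-site CGTCA, the NF-kB motif (GGG, any 2 bases, then TTTCC), the AP-1 motif TGANTCA, the forkhead motif GTAAACA, the heat shock motif GAANNTTC and the CCAAT box CCAAT. The full element TGACGTCA contains the half-site CGTCA once on each strand, so these overlap. In the Areg promoter TGACGTCA lay 61 to 54 bases before the start, and a further CGTCA 115 to 111 bases before it. TGACGTCA was present in 1.55% of all 32851 promoter windows of this length. Nr4a1 held 4 separate CGTCA half-sites, a number reached by 0.137% of all windows, and Atf3 held 1, 7 to 3 bases before its start. The Nfkbia promoter held the NF-kB motif 29 to 20 bases before the start, found in 1.41% of all windows. Txnip held GTAAACA 121 to 115 bases before the start, found in 3.17% of windows, between a pair of CCAAT boxes, found in 33.8%.

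Of the 54 genes lower without Areg, 45 had a promoter window. The NF-kB motif was in 6 of these 45 (Cxcl2, Cxcl3, Dusp5, Nfkbia, Sytl3 and Tnfrsf9), 13.3%, and in 1.90% of the 4636 measured genes with a window. TGANTCA was in 7 of the 45, 15.6%, against 4.87%, and TGACGTCA in 3 (Ell2, Ppp1r15a and Snhg15), 6.67%, against 3.54%. CGTCA was in 19, 42.2%, against 34.7%. The near-identical copies Bcl2a1b and Bcl2a1d are both among the 7 with TGANTCA and the 19 with CGTCA, so these are not all separate promoters. The CCAAT box was in 18, 40.0%, against 39.6%, the heat shock motif in 2, 4.44%, against 5.85%, and the forkhead motif in 0, against 2.80%. These matches are descriptions of letters in a window.

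The cells also varied with the amount of Il1rl1. Cells with 3 or more Il1rl1 UMIs were set against those with 1 UMI, which again uses the gene of the rule and is a description. Of 5820 genes measured, 19 were 1.5-fold higher in all 4 conditions (0.326%) and 12 lower (0.206%). Thinning gave 66 higher, stricter hashtag calls 20 lower, cells with a Foxp3 UMI 19 lower, and 5 added counts 10 higher and 7 lower. Cells with 3 or more Il1rl1 UMIs were also deeper in WT, KO and NCD, with medians of 3723, 3945.5 and 3996 UMIs against 3088, 3395 and 3308. In HFD the medians were 3141.5 and 3214 UMIs.

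Several genes of the adipose Treg program were on the higher side. Pparg was 165 CPM at 3 or more Il1rl1 UMIs and 68.3 at 1 in WT, 151 and 78.6 in KO, 73.9 and 47.1 in NCD, and 30.5 and 14.2 in HFD. Plin2, which coats lipid droplets, had log2 ratios of 0.81, 0.92, 0.72 and 1.67, and Il2ra, the alpha chain of the interleukin-2 receptor, 0.72, 0.85, 0.59 and 0.82. Il10 had 0.69, 1.49, 1.51 and 1.85. These 4 genes, of 29 measured in the program, passed in all 4 conditions. In HFD, ST2+ Areg- cells with a Klrg1 UMI held 8 Il10 and 15 Pparg UMIs, and those without held 4 and 9. The HFD ratios of Il10 and Pparg thus rest on few UMIs and are uncertain. Pcsk1, a proprotein convertase, and Tox2, a nuclear factor of the TOX family, ranked highest of the named genes by their weakest condition, with ratios of 2.60 and 1.25 in WT and 3.25 and 1.61 in HFD.

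On the lower side, 3 of 9 measured type 1 genes passed: Cxcr3, Nkg7, a granule gene of cytotoxic cells, and Ifng, the gene of interferon-gamma. Cxcr3, the chemokine receptor of type 1 T cells, was 16.8 CPM at 3 or more Il1rl1 UMIs and 83.5 at 1 in WT, 30.1 and 147 in KO, 23.9 and 123 in NCD and 98.2 and 171 in HFD. Cells without either Il1rl1 or Areg UMIs had 246, 315, 309.9 and 197 CPM. Cxcr3 therefore lay lower with each step of Il1rl1 in WT, KO and NCD, and the cells just inside the rule lay between those just outside it and those well inside. Of 7 measured resting and lymphoid-homing genes 1 passed, Tcf7, the gene of the transcription factor TCF-1, which was 12.4 against 34.9, 9.27 against 36.5, 7.20 against 34.2 and 77.9 against 169 CPM. In WT, KO and NCD Tcf7 reached 20 CPM only at 1 Il1rl1 UMI, so the floor bears on its being counted. Foxp3 did not follow Il1rl1 in the same way: it was 289.9, 254, 213 and 234 CPM at 3 or more UMIs and 282, 211, 228 and 221 at 1.

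How diet bore on these cells was read from HFD against NCD within the ST2+ Areg- cells. Among 6723 genes that reached 20 CPM in HFD or NCD, 951 (14.1%) were 1.5-fold or more higher in HFD and 555 (8.26%) lower. The marker genes were lower in HFD: Klrg1 by a log2 ratio of -1.85 (-2.01 to -1.70), Pparg by -1.55 (-2.25 to -0.98), Txnip by -1.24 (-1.37 to -1.11) and Il1rl1, which the rule used, by -0.82. Foxp3 was 220.0 and 216 CPM, a ratio of -0.03 (-0.25 to 0.18).

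Of 32 measured genes of the ST2 adipose Treg program 20 were lower in HFD and 7 higher, with a median of -1.10 against 0.08 over all genes. Anxa1, which encodes the anti-inflammatory annexin A1, stood at 989 CPM in NCD and 141 in HFD, -2.81 (-3.06 to -2.57). Plin2 was 521 and 86.3, Il10 66.8 and 11.5, and Ccr1, a receptor for inflammatory chemokines, 99.4 and 18.2. The 7 higher members were Batf, Itgae, Ctla4, Icos, Tnfrsf4, Tnfrsf9 and Penk. Penk, the precursor of enkephalin peptides, was 25.8 and 273 CPM, but 1 cell held 40% of its UMIs in NCD and 1 cell 18% in HFD.

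Of 12 Treg core genes 5 were higher (Ctla4, Tnfrsf4, Izumo1r, Nrp1 and Lrrc32) and 2 lower (Il2ra and Capg), with a median of 0.44. Il2ra was 641 CPM in NCD and 293 in HFD, and Nrp1, the gene of the receptor neuropilin-1, 101 and 289. Of 8 genes of the interleukin-33, interleukin-1 and interleukin-18 receptors and their signalling 2 were higher, Il18r1 at 39.5 and 135 CPM and the decoy receptor gene Il1r2, and none was lower. With the 20 CPM floor on the mean of both groups 1 of 7 was higher and none was lower.

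Outside those lists, Bace2, a membrane aspartyl protease, was 140 CPM in NCD and 10.5 in HFD, -3.67 (-4.75 to -2.88). Lgals3, the gene of galectin-3, had 624 and 67.1 CPM, and Nmur1, a neuropeptide receptor known from group 2 innate lymphoid cells, 53.3 and 4.79. Of 12 lipid droplet and fatty acid genes 4 were lower (Plin2, Hilpda, Fabp5 and Acadm) and 1 higher (Elovl6).

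Of 14 listed genes of resting and lymphoid-homing T cells 12 were measured, and 9 were higher in HFD and 1 lower. Of the 9, 7 reached 20 CPM in HFD alone, so the floor bears on this count. With the floor on the mean of both groups 7 of 10 were higher and 1 lower, with a median of 1.85 against 0.07 over all genes. Tcf7 was 12.03 CPM in NCD and 132 in HFD, 3.45 (2.98 to 3.96), and Bach2, a repressor that keeps Treg cells in a resting state, 17.4 and 135, 2.95 (2.53 to 3.39). Lrrc32, whose product GARP holds latent TGF-beta on the Treg cell surface, was 4.42 and 55.6. No single cell held 10% or more of the Tcf7 UMIs in HFD.

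Among 19 quiescence and FOXO-linked genes 7 were higher in HFD, among them Klf3, Foxo1 and S1pr1, the receptor gene for exit from tissue, and Txnip was the only lower one. Foxo1 was 62.9 CPM in NCD and 119 in HFD, a ratio of 0.92 (0.60 to 1.23).

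Other groups split. Of 12 interferon response genes 6 were higher and 1 lower, with Isg15, an interferon-induced ubiquitin-like modifier, at 15.7 and 26.8 CPM. Of 15 NF-kB targets 4 were higher (Rel, Relb, Tnfaip3 and Bcl2a1d) and none lower, with Rel at 57.4 and 197 CPM. Among 22 AP-1 and immediate early genes 8 were lower, among them Fos, Jun and Egr1, and 3 higher, Dusp2, Nr4a2 and Nr4a3. Heat shock genes were lower in 4 of 14, with Hspa1b at 822 and 138 CPM. Type 1 genes were higher in 5 of 11 and lower in 3, and chemokine receptors and integrins higher in 9 of 19 and lower in 7. With the floor on the mean of both groups, type 1 genes were higher in 5 of 9 and lower in 1. Chemokine receptors and integrins were then higher in 8 of 16 and lower in 5. Inhibitory receptors and ectoenzymes were higher in 5 of 10 and lower in 3, with Pdcd1, the gene of PD-1, at 138 and 402 CPM. Apoptosis genes were higher in 4 of 13 and lower in 2, with Bcl2, the survival gene, at 47.4 and 104 CPM. With the floor on the mean of both groups they were higher in 3 of 12 and lower in 2. Of 14 glycolysis genes 1 passed, the glucose transporter gene Slc2a3 at 79.3 and 49.8 CPM. Of 22 nuclear genes of oxidative phosphorylation Ndufa4 was higher and Ndufs5 lower. Cholesterol synthesis genes were lower in 3 of 8, among them Fdps and Nsdhl, and higher in none, but in 0 of 4 with the floor on the mean of both groups, and Srebf2 was 74.9 and 47.9 CPM. Proliferation genes were higher in 9 of 13, and in 5 of 9 with the floor on the mean of both groups, but 1 cell held 64% of the Ccna2 UMIs in NCD and 46% in HFD. Without the 2% deepest cells, Ccna2, Birc5 and Ccnb2 changed sign, to -1.44, -1.25 and -2.62.

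The share of cells with Klrg1 differed as well, so the diet comparison was repeated within the ST2+ Areg- cells that had a Klrg1 UMI, 911 in NCD and 107 in HFD. Then 1234 genes (18.4%) were higher and 607 (9.03%) lower. Klrg1 itself had a ratio of -0.75, Pparg -1.04, Txnip -1.19, Anxa1 -1.91, Lgals3 -2.39 and Tcf7 3.55. These ratios kept the sign of those over all ST2+ Areg- cells, and all of these but that of Tcf7 lay nearer to 0. Fabp5 changed from -0.66 to 0.07. Within HFD, cells with a Klrg1 UMI had 77.1 CPM of Tcf7 and those without 175, and for Plin2 163 and 27.1. In NCD the same split gave 6.55 and 92.8 for Tcf7 and 545 and 166 for Plin2.

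With membership set at 2 or more Il1rl1 UMIs, 72 of 95 named genes of the diet comparison stayed within the 95% interval of their value and 23 moved outside it, without a change of sign. ST2+ Areg+ cells showed like differences, with Klrg1 at -0.97, Pparg at -1.77 and Tcf7 at 2.77. For Klrg1 and Tcf7 the ratio was farther from 0 in the ST2+ Areg- cells, and the difference was not tested. Egr1 was -1.16 in ST2+ Areg- and -3.24 in ST2+ Areg+ cells.

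**Figure D5:**
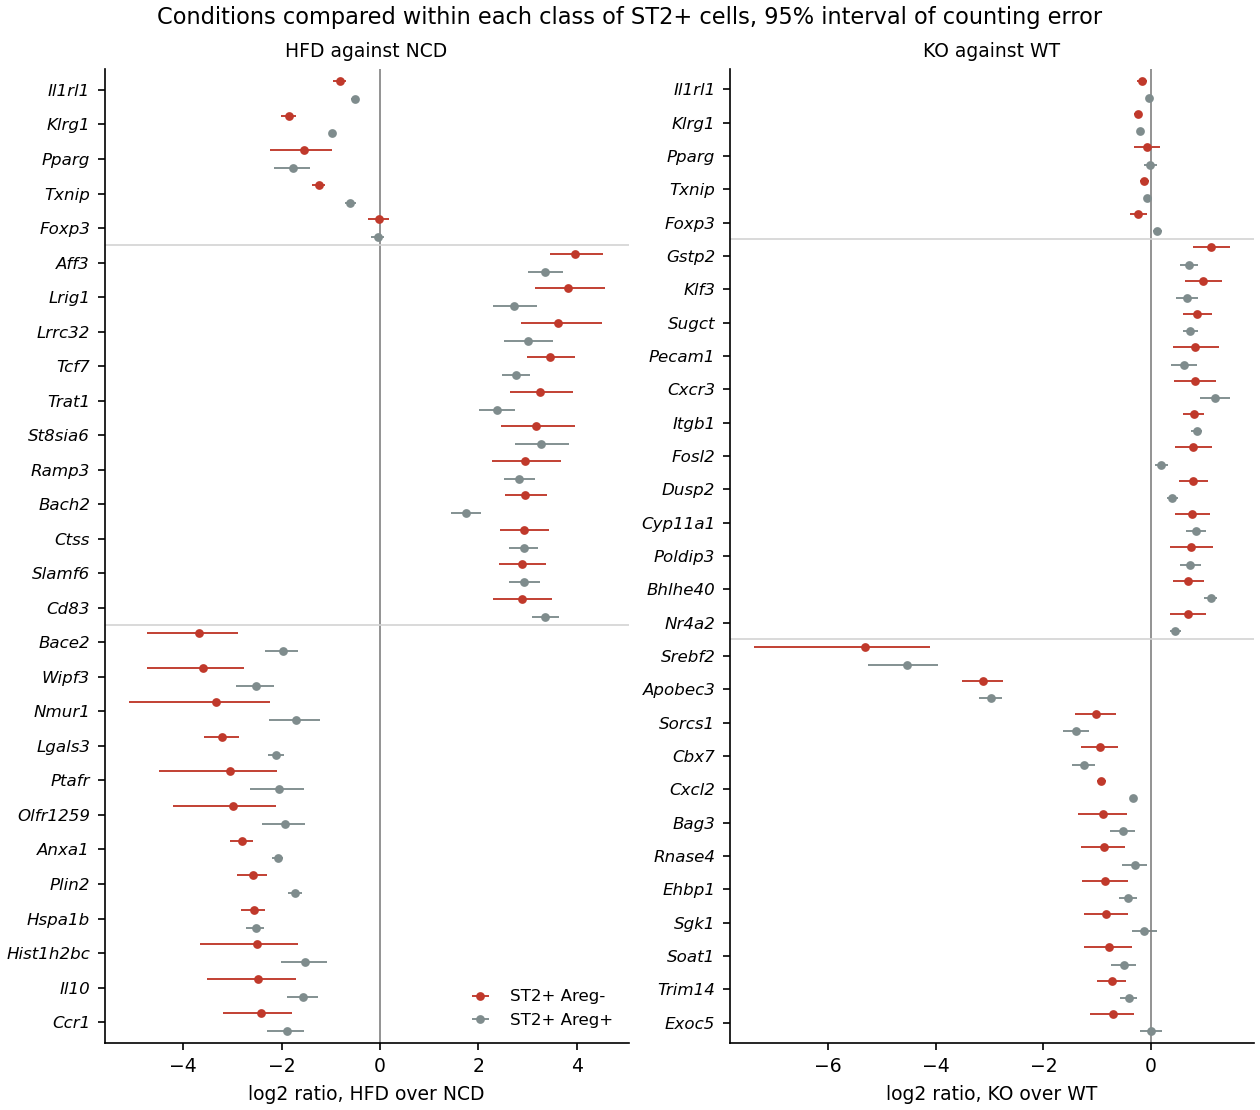
Log2 ratios (x axis) of HFD over NCD (left) and KO over WT (right) in ST2+ Areg- cells (red) and ST2+ Areg+ cells (grey) for the markers and the named genes with the highest and lowest ratios (y axis), with 95% intervals of counting error. In HFD Tcf7 and Bach2 lie above 0 and Bace2, Lgals3 and Plin2 below it, and on the right Srebf2 at -5.31 and Apobec3 at -3.11 lie far from all other genes.

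The comparison of KO with WT asked what the loss of Srebf2, the gene of the transcription factor SREBP2 that drives cholesterol synthesis and uptake, goes with in these cells. Srebf2 (chr15:82147269-82205379) checked the labels first: it was counted 160 times in WT and 4 times in KO, 71.96 and 1.61 CPM, -5.31 (-7.37 to -4.09). No single cell held 10% or more of the WT counts. NCD and HFD cells, which carry no Srebf2 flox allele in the labels, had 74.9 and 47.9 CPM.

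Fewer genes passed than by diet, but HFD held only 264 cells, against 577 in WT and 601 in KO. The comparisons also come from separate pools, and the part of these differences in the counts was not tested. Of 6645 genes measured, 117 (1.76%) were 1.5-fold or more higher in KO and 190 (2.86%) lower. Thinning to 2000 UMIs gave 295 and 353, and cells with a Foxp3 UMI 234 and 309. The marker genes lay close to equal: Klrg1 was 1248 and 1051 CPM (-0.25, -0.33 to -0.17), Pparg 129 and 122 (-0.07, -0.31 to 0.16) and Txnip 1081 and 989.7 (-0.13). Il1rl1 was 856 and 765 CPM (-0.16), but the rule required it in every cell, so this value does not show whether Il1rl1 differed. Among all kept cells, 71.0% had an Il1rl1 UMI in WT (69.5 to 72.5) and 58.7% in KO (57.1 to 60.2). Foxp3 was 286 and 243 (-0.24, -0.40 to -0.07). None of 11 Treg core genes and 3 of 32 genes of the ST2 program passed 1.5-fold, Penk and Cyp11a1 upward and Pxdc1 downward. Penk was 18.0 and 44.0 CPM, with 28% of its UMIs in 1 cell in each condition.

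Of 20 listed cholesterol synthesis genes 10 were measured, and 8 of these were 1.5-fold or more lower in KO and none higher. A gene was measured when either group reached 20 CPM, and 5 of the 8 did so in WT alone, so that floor raises the count. With the floor on the mean of both groups, chosen after seeing the data, 4 of 6 were lower, with a median of -0.67 against -0.04 over all genes. Over all 20 members without a floor, 12 were lower and none higher, with a median of -0.74. Cyp51, the lanosterol demethylase, was 23.4 CPM in WT and 8.07 in KO, -1.51 (-2.36 to -0.77), and Msmo1, a methylsterol oxidase of the same pathway, 23.8 and 8.47. Hmgcs1, the synthase that makes HMG-CoA, was 21.6 and 10.1. Idi1, Fdps and Fdft1 were also lower. In ST2+ Areg+ cells Cyp51 had a ratio of -1.39 and Hmgcs1 of -0.50. Apart from Srebf2 itself, 2 of the 9 other measured genes of sterol uptake and control were lower, Insig1, which holds SREBP in the endoplasmic reticulum, at 26.1 and 15.7 CPM, and Soat1, which esterifies cholesterol for storage, at 50.4 and 29.0. Cyp11a1, which cleaves the side chain of cholesterol, was higher at 55.8 and 94.8 CPM, 0.76 (0.45 to 1.09).

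Other named genes higher in KO were Gstp2, a glutathione transferase with near-identical copies whose value is uncertain, at 45.9 and 99.3 CPM, Klf3, a repressor of the Kruppel-like family, at 47.7 and 92.8, and Itgb1, the beta-1 integrin, at 157 and 270.3. Of 9 measured type 1 genes 3 were higher and none lower: Cxcr3 at 38.7 and 67.8 CPM, Ccl5, a chemokine, at 135 and 214, and Ifng at 14.8 and 34.3. Of 22 AP-1 and immediate early genes 3 were higher, Fosl2, Dusp2 and Nr4a2, with ratios of 0.78, 0.78 and 0.68. Of 15 NF-kB targets, 14 glycolysis genes, 22 nuclear genes of oxidative phosphorylation and 11 lipid genes none passed. Stmn1, Birc5, Mki67 and Top2a, of 12 proliferation genes, were higher, but 1 KO cell held 54% of the Mki67 UMIs, and all 4 changed sign when cells were thinned to 2000 UMIs.

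Lower in KO were Cxcl2 at 1447 and 764 CPM (-0.92, -1.004 to -0.84), which in ST2+ Areg+ cells had a ratio of -0.33, and the sorting receptor gene Sorcs1 at 74.7 and 36.7. Apobec3, an antiviral deaminase (chr15:79892058-79918218), was 232 CPM in WT and 26.6 in KO, -3.11 (-3.51 to -2.75), and -2.97 in ST2+ Areg+ cells. Cbx7, a Polycomb protein (chr15:79915804-79971143), was 91.7 and 47.2, and Poldip3 (chr15:83125968-83149378) 38.2 and 64.1. All 3 genes lie on chromosome 15 within 5 Mb of Srebf2. The labels used here do not give the strain background of the floxed allele, so for these genes the loss of Srebf2 and DNA linked to the allele cannot be told apart.

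Of the markers of other cell types, some lists were near 0 in the ST2+ Areg- cells and others were not. The 6 macrophage markers summed to between 1.72 and 4.79 CPM over the 4 conditions, the 6 adipose stroma and adipocyte markers to between 1.72 and 2.70, the 4 unconventional T cell markers to at most 2.02 and the 6 mast cell and basophil markers to at most 2.02. B cell markers summed to 113, 99.7, 85.7 and 200.4 CPM in WT, KO, NCD and HFD, nearly all from Cd74, a class II chain that activated T cells can also carry, while Cd79a, which the rule used, was at 0. Conventional CD4 T cell markers summed to 210.5, 331, 224 and 380 CPM, with Cd40lg and Tnf above 20 CPM and Il17a at 0 in all 4. The latter sum was also higher in KO than in WT. Both sums were higher in HFD than in NCD, and their part in the comparisons was not tested. The 6 group 2 innate lymphoid cell markers summed to 56.2, 74.6, 78.8 and 21.1 CPM, of which Nmur1 made up 41.8, 39.9, 53.3 and 4.79, and the 6 CD8 T and natural killer cell markers to between 16.2 and 23.0. The 4 endothelial markers summed to 32.4, 58.5, 23.8 and 94.9, nearly all from Pecam1, which T cells also carry, while Kdr and Cdh5 were at 0 or under 5 CPM. Haemoglobin genes reached 465 CPM in KO and 444 in NCD, against 7.20 in WT and 4.79 in HFD. Of the 2435 cells, 35 carried a barcode found in both matrices, and 1 barcode was ST2+ Areg- in both.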

How the data were processed

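Gene and hashtag UMIs of 2 pools of sorted visceral adipose Treg cells were analysed. The authors deposited unnormalized UMI counts per gene and cell, made with Cell Ranger per the file headers, which name version 7.1.0 in the Srebf2 pool and version 7.0.1 in the diet pool, and on mm10 per the submitters' processing notes, which name 7.0.1 alone. A deposited text table, of unit other, pairs each hashtag with its condition and sequence per the file headers.

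Of 20492 barcodes, 9036 in the Srebf2 pool and 11456 in the diet pool, 16895 passed the filters given in the report. No doublet caller was run: barcodes with a mixed hashtag or a Cd79a, Lyz2 or Cd8a UMI were left out. The hashtags of the Srebf2 pool were uneven, with a median of 62 counts for hashtag 1 (WT) and 1474 for hashtag 2 (KO) in kept cells. All 1178 ST2+ Areg- cells of that pool, WT included, had 10 or more counts of hashtag 2. The part of this in the WT and KO calls was not tested. UMIs were summed per class and condition and scaled to 1e+06 UMIs of the class (CPM). Median depth was 3233.5 to 3774 UMIs per ST2+ Areg- cell, and the classes summed to 1043144 to 4073149 UMIs. Since each condition is 1 sample, no test was run. Levels carry exact Poisson, shares exact Clopper-Pearson and log2 ratios exact binomial 95% intervals, which cover counting error only. Ratios were scaled by total UMIs with 0.5 counts added, and a gene passed when it was at 20 CPM or more in the higher group and 1.5-fold apart.

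Named genes were the markers, Srebf2 and Foxp3, the 12 highest and 12 lowest ratios at 50 CPM or more with under 10% of the UMIs in 1 cell, up to 4 genes of each list, and the genes of the cell type marker lists. Antigen receptor, immunoglobulin, mitochondrial, ribosomal, haemoglobin and unnamed gene models were left out. For the contrasts by Areg and Il1rl1 the 12 were ranked by the weakest of 4 ratios of 1 sign. Other list members are named to complete a short count and were chosen after their values were seen. The cells, gene lists and tests were chosen with earlier results of these data known. A few genes of the lists are counted but not reported here by name. The comparison within Klrg1-positive cells, the floor on the mean of both groups and the look at genes near Srebf2 were added after seeing the data.

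On simulated counts with known changes, the intervals of KO against WT covered the true ratio for 95.6% of 6318 genes and those of HFD against NCD for 96.0% of 6161. The share of changed genes found past 1.5-fold was 97.5% and 93.5%, and that of unchanged genes past it 0.817% and 2.35%. The real comparisons measured 6645 genes in KO against WT and 6723 in HFD against NCD, so the gene sets differ. These shares therefore describe the simulated counts and are not error rates of the real counts of genes passing. How spread between cells or between mice bears on the real counts was not tested. Alternatives were thinning to 2000 UMIs, stricter hashtag calls, cells with a Foxp3 UMI, 2 or more Il1rl1 UMIs, leaving out the 2% deepest cells, other floors, other added counts and scaling by the median gene. Promoters and gene coordinates came from RefSeq, GRCm38.p6. Python 3.11.15, numpy 2.4.6, scipy 1.17.1, pandas 2.3.3 and matplotlib 3.10.9 were used.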

Additional observations from a re-analysis of the deposited data

Results flagged for a closer look

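Between ST2+ Areg- and ST2+ Areg+ cells, 3 haemoglobin genes had KO over WT log2 ratios of opposite sign. Hba-a1 stood at 5.78 in ST2+ Areg- and -5.15 in ST2+ Areg+ cells, Hbb-bs at 5.997 and -5.29, and Hbb-bt at 5.24 and -6.77. One cell held 98% to 99% of these UMIs in the class where each was high. The fourth is Stmn1, a microtubule regulator of dividing cells, whose log2 ratio of ST2+ Areg- over ST2+ Areg+ cells was 0.74 in KO and -1.54 in HFD. These differences were not tested.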

How the results depend on the processing

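No paired analysis was possible because each condition is 1 sample. Scaling by the median ratio and 5 counts added reversed no named gene. With membership at 2 or more Il1rl1 UMIs, ST2+ Areg- cells were 10.97%, 10.4%, 16.2% and 2.55% of kept cells in WT, KO, NCD and HFD, the Areg-free share was 20.2%, 23.8%, 24.3% and 23.9%, and 177 genes were higher in KO. Thinning to 2000 UMIs gave Areg-free shares of 28.9% in WT, 31.9% in KO and 31.8% in NCD, and ST2+ Areg- shares of 21.4% in NCD and 4.66% in HFD. It also gave 295 genes higher and 353 lower in KO and 66 higher at 3 or more Il1rl1 UMIs. Under thinning the KO ratios of Birc5, Stmn1, Mki67 and Top2a turned to -0.43, -0.48, -0.068 and -0.36, and Prkch at 3 or more Il1rl1 UMIs to 0.21. Cells with a Foxp3 UMI gave an Areg-free share of 22.7% in KO, an ST2+ Areg- share of 7.28% in HFD, 234 genes higher and 309 lower in KO, and 19 lower at 3 or more Il1rl1 UMIs. Stricter hashtag calls gave 20 of the latter. Without the 2% deepest cells the HFD ratios of Ccna2, Birc5 and Ccnb2 turned to -1.44, -1.25 and -2.62. At a floor of 50 CPM, 35 genes were higher and 36 lower in KO, 437 and 264 in HFD, 5 higher without Areg, and 10 higher and 4 lower at 3 or more Il1rl1 UMIs. At 5 CPM these were 504 and 683, 1710 and 1226, 30, and 44 and 26, and fewer or more genes tested made those changes. With the 20 CPM floor on the mean of both groups, chosen after seeing the data, 125 genes were lower in KO. With 5 counts added, 10 genes were higher and 7 lower at 3 or more Il1rl1 UMIs. Within Klrg1-positive cells, chosen after seeing the data, Fabp5 turned to 0.074 in HFD. The cause was not tested for the other changes. Depth limits the HFD cells most, with 264 cells.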

Other observations

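Apobec3, Cbx7 and Poldip3 all lie on chromosome 15, as Srebf2 does, so genes near Srebf2 were counted after seeing the data. Within 5 Mb of Srebf2, 65 genes were measured in KO against WT in ST2+ Areg- cells, of which 3 were 1.5-fold or more higher and 4 lower, 10.8%. On the rest of chromosome 15, 187 genes were measured, and 4 were lower and none higher, 2.14%. On the other chromosomes 6287 genes were measured, and 102 were higher and 178 lower, 4.45%. The 7 genes were Apobec3, 2.26 Mb from Srebf2, Cbx7, 2.23 Mb away, Poldip3, 0.979 Mb away, Bik, Cdpf1, Gramd4 and the gene model Gm36738. The ratios in ST2+ Areg+ cells were -2.97 for Apobec3, -1.26 for Cbx7 and 0.73 for Poldip3. The others were under 1.5-fold there, with 0.44 for Gm36738, 0.07 for Bik, -0.33 for Cdpf1 and -0.33 for Gramd4. In ST2+ Areg- cells Gm36738 and Bik reached 20 CPM in KO alone and Cdpf1 in WT alone, so the floor bears on the 10.8%.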
